A study of Mus musculus with 10 samples.

Results

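Voltage-gated and potassium channel genes were examined in sorted cells from differentiating mouse embryonic stem cells (mESCs). They were chosen by name, as the protein-coding genes of GENCODE release M21 whose symbols begin with Cacna, Cacnb, Cacng or Kcn, or name a sodium channel subunit (Scn) or 1 of the HCN channels. The rule found 138 genes among 38924 gene rows, 21226 of them protein coding, and no measured value was used to choose them. All samples came from 1 mESC line, Foxa2-hCD4, in which a truncated human CD4 (hCD4) made from the Foxa2 locus marks Foxa2-expressing cells, and all were sorted on day 5 of differentiation. Cardiac cultures (8 ng/ml Activin A, 1 ng/ml BMP4 and 5 ng/ml VEGF) gave Foxa2+ cardiac mesoderm (Foxa2+ CM; Pdgfra+ Kdr+ hCD4+, n = 3), Foxa2- cardiac mesoderm (Foxa2- CM; Pdgfra+ Kdr+ hCD4-, n = 3) and haematopoietic mesoderm (sorted for high Kdr, which the labels call Flk1, n = 2). Separate cultures with 75 ng/ml Activin A gave Foxa2+ endoderm (Pdgfra- Kdr- hCD4+, n = 2), so that culture and cell type cannot be told apart where endoderm is compared. Nothing in the labels says whether the replicates of a group were separate differentiations, and p-values then measure the spread between these samples, which may be technical.

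These genes encode the proteins that set and change the voltage across the cell membrane. Pore-forming subunits let calcium, sodium or potassium ions through, and accessory subunits alter how many pores reach the membrane and how they open. In the adult heart, sodium channels start the action potential, L-type calcium channels hold it and admit the calcium that triggers contraction, potassium channels end it, and HCN and T-type calcium channels contribute to pacemaking. Outside excitable cells, potassium channels keep the resting potential and help to regulate volume and calcium entry. The comparisons below ask which of these genes distinguish the 2 kinds of cardiac mesoderm, and which distinguish cardiac mesoderm from endoderm and from haematopoietic mesoderm.

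The libraries held between 10926284 and 17470126 counts on genes, of which 0.0726 to 0.142% lay on the channel genes, and 3 counts, taken as the floor of detection, were worth 0.172 to 0.275 CPM (counts per gene scaled to a common library size). Foxa2 itself was at 20.03, 16.03 and 3.50 CPM in Foxa2+ CM, 2.54, 0.873 and 0.903 in Foxa2- CM, 186 and 183 in endoderm and 0.690 and 0.788 in haematopoietic mesoderm, so that replicate 3 of Foxa2+ CM lay closer to Foxa2- CM than to the other 2 samples of its group. Replicate 3 of each CM group also held more Cdh5, an endothelial cadherin (4.53, 7.81 and 13.6 CPM in Foxa2+ CM against 2.85, 1.98 and 43.4 CPM in Foxa2- CM), and its part in the results was not tested. The summed CPM of 6 haemato-endothelial markers was 814 to 1141.1 in haematopoietic mesoderm and 184 to 248 and 163 to 299 in the CM groups, and that of 5 endoderm markers was 721 to 827 in endoderm and at most 161 elsewhere. In each list 1 gene did not follow its sum. Etv2 was at 88.0 and 92.4 CPM in haematopoietic mesoderm against 126, 104 and 97.6 in Foxa2+ CM and 106, 113 and 91.1 in Foxa2- CM. Cxcr4 was at 56.0 and 110 CPM in endoderm against 79.2, 81.9 and 90.6 in Foxa2+ CM and 103, 117 and 96.2 in Foxa2- CM. The sum of 4 pluripotency markers was also higher in endoderm (368 to 373 summed CPM, against 44.8 to 51.6 in Foxa2+ CM, 78.05 to 118 in Foxa2- CM and 26.1 to 46.5 in haematopoietic mesoderm), with 3 of the 4 called higher than in either CM group and 1, Zfp42, called lower (2.05 and 2.26 CPM in endoderm against 5.56, 5.84 and 5.92 in Foxa2+ CM). Tnnt2, the troponin T of cardiomyocytes, stayed at or below 8.48 CPM in every sample. The sum of 5 cardiomyocyte markers, Tnnt2 among them, ran from 18.4 (endoderm replicate 1) to 45.1 summed CPM (replicate 3 of Foxa2- CM). Within each CM group Ryr2 peaked in replicate 3, reaching 15.8 (Foxa2+) or 30.8 CPM (Foxa2-). Myh6 reached 14.7 CPM and Actn2 9.04 CPM, both in replicate 1 of haematopoietic mesoderm, while Myh7 stayed at or below 8.28 CPM.

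Most channel genes were expressed at a low level. At least 1 CPM in every sample was reached by 63 of the 138 genes in Foxa2+ CM, 60 in Foxa2- CM, 71 in endoderm and 58 in haematopoietic mesoderm, and by 39 genes in all 10 samples. Only 12 genes were at 10 CPM or more in all 10 samples. They included the calcium channel genes Cacna1a, Cacna1g, Cacna1h, Cacna2d2, Cacnb1 and Cacnb3 and the potassium channel genes Kcnd1, Kcnip3, Kcnk1, Kcnk5 and Kcnq3. At the other end, 15 genes were under 3 counts in every sample, among them 3 with no count at all (Cacng1, Kcna10 and Kcnj1), which at this depth is no proof of absence. After the filter on low counts, 79 of the 138 genes were tested between the CM groups and 100 in the model of all 10 samples, and 38 were in no test. For 20 of the 138 genes more than 5% of the exon sequence is shared with another gene, in all but 1 case (Kcnk4) on the other strand, and their reads may be lost or misplaced.

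Scaled by exon length, the most abundant channel mRNAs were those of a potassium leak channel and of calcium channel accessory subunits. Kcnk1, which encodes the two-pore-domain channel TWIK1, averaged 29.1 CPM per kb of exon over the 10 samples, Cacnb3, the beta3 subunit that carries calcium channels to the membrane, 22.8, Kcnip3, a calcium-binding partner of Kv4 channels also known as the repressor DREAM, 19.2, and Cacna2d2, the alpha2delta2 subunit, 16.6 CPM per kb. These 4 lay above the pore with the highest length-scaled level among voltage-gated channels, Scn4a (8.92 CPM per kb). Within families the level often rested on 1 gene. Cacna2d2 made up 90.6% of the alpha2delta sum, Cacnb3 78.1% of the beta subunit sum, Scn4a 75.4% of the sodium channel alpha sum and Kcnk1 65.0% of the two-pore-domain sum, each on the length-scaled scale over 10 samples. Families that spread widely between groups included L-type calcium channel pores, at 2.89 ± 0.307 summed CPM per kb in Foxa2+ CM (SD, n = 3), 2.91 ± 0.352 in Foxa2- CM (n = 3), 0.613 ± 0.158 in endoderm (n = 2) and 1.03 ± 0.345 in haematopoietic mesoderm (n = 2), sodium channel alpha subunits (23.1 ± 1.05, 9.45 ± 1.01, 6.48 ± 1.18 and 3.81 ± 0.625, in the same order) and silent Kv subunits (3.91 ± 0.0318, 6.55 ± 0.313, 21.7 ± 4.89 and 5.13 ± 0.882). Silent Kv subunits form no channel alone and modify those of other Kv subunits. In these RNA samples of mixed cells, fewer cells with a transcript and less transcript per cell cannot be told apart.

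**Figure D1:**
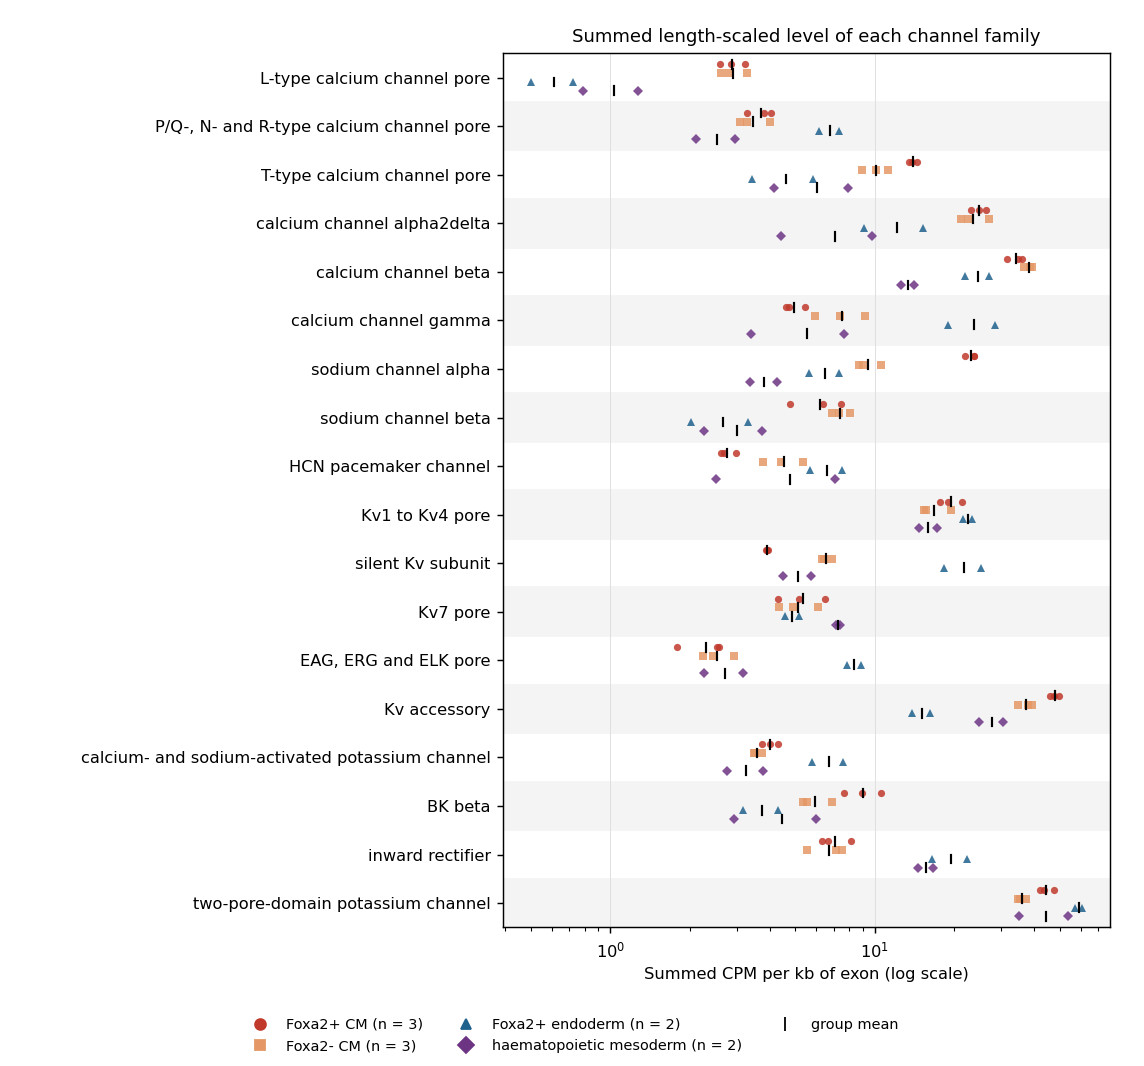
Summed length-scaled level (CPM per kb of exon, log scale) of the 18 channel families in each of the 10 samples, with the mean of each group as a black bar. L-type pores lie lowest in endoderm, sodium channel alpha subunits highest in Foxa2+ CM, and the silent Kv and EAG, ERG and ELK families highest in endoderm.

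The first comparison asked which channel genes differ between cardiac mesoderm cells that did and did not make hCD4 from the Foxa2 locus. Of the 79 tested genes, 15 passed an adjusted p of 0.05 in edgeR's quasi-likelihood test, beside 6.48% of all 15284 genes tested. Foxa2+ CM was higher for 11 of them (background 3.81%) and lower for 4 (background 2.66%). The 11 were Scn4a, Kcnmb1, Cacna1e, Cacna2d3, Kcne3, Kcnk10, Kcnt2, Kcne1, Cacna1g, Kcnip3 and Kcnk1, and the 4 included Kcne1l, Kcng3 and Cacna1d. With 1 CM sample left out, Kcnk1 was called in 0 of 6 fits (log2 fold change 0.26 to 0.34) and Kcnt2 in 1 of 6 (0.58 to 0.72). The call for Kcnk1 was also lost with RLE size factors, with no filter and with a stricter filter. The median log2 fold change of the 79 genes was -0.0064, against -0.0014 for all genes tested. Of the 15, 8 differed by at least 2-fold (background 3.01%). Log2 fold changes are given here and below with their standard error (SE) and the p adjusted over all genes tested.

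Scn4a was the most abundant sodium channel gene of cardiac mesoderm and stood higher in its Foxa2+ part. It encodes Nav1.4, the sodium channel pore known from skeletal muscle, and lies on chr11:106318592-106353288 on the minus strand (mm10). It was at 139, 150.2 and 154 CPM in Foxa2+ CM, 44.5, 44.5 and 61.5 in Foxa2- CM, 0.932 and 2.26 in endoderm and 7.97 and 23.7 in haematopoietic mesoderm. No 2 groups overlapped, with Foxa2+ CM the highest and endoderm the lowest. The log2 fold change between the CM groups was 1.56 ± 0.13 (SE, adjusted p = 0.0015), a 2.94-fold difference. It kept an adjusted p of 9.8e-06 to 0.017 when any 1 CM sample was left out.

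Kcne1l, also called Kcne5, showed the widest difference between the CM groups and was the lower in Foxa2+ CM. It belongs to the KCNE family, small single-span subunits that alter how potassium channel pores open, and lies on chrX:142304752-142306294. Its level was 0.439, 0.231 and 0.338 CPM in Foxa2+ CM, which is 4 to 6 counts a library, and 5.63, 5.24 and 3.05 CPM in Foxa2- CM, with endoderm at 1.86 and 2.76 and haematopoietic mesoderm at 2.07 and 0 CPM. The log2 fold change was -3.77 ± 0.36 (SE, adjusted p = 0.0024), and the adjusted p was 7.7e-05 to 0.023 with 1 sample left out. Kcne1 and Kcne3, of the same family, were higher in Foxa2+ CM. Kcne1 was at 47.5, 48.03 and 58.04 CPM in Foxa2+ CM against 33.6, 31.2 and 39.7 CPM in Foxa2- CM (0.56 ± 0.12, adjusted p = 0.036), and Kcne3 at 3.44, 2.72 and 2.20 and 0.557, 0.953 and 1.35 CPM (1.52 ± 0.34, adjusted p = 0.041). Both calls were lost without replicate 1 or 2 of either CM group, and that of Kcne1 also without replicate 3 of Foxa2+ CM, with adjusted p of up to 0.15 for Kcne3. Kcnq1, the pore that Kcne1 joins to carry the slow repolarising current of the heart, was at or below 0.630 CPM in every sample and was in no test.

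The remaining genes with at least 2-fold differences covered calcium channels, the BK channel and a leak channel. Kcnmb1, the beta1 subunit that raises the calcium sensitivity of BK channels, was at 15.5, 18.5 and 23.8 CPM in Foxa2+ CM against 3.90, 4.45 and 9.54 CPM in Foxa2- CM (1.68 ± 0.34, adjusted p = 0.029). The BK pore gene Kcnma1 was at 3.36, 6.54 and 4.29 and 4.64, 5.24 and 8.52 CPM, ranges that overlap. Among calcium channels, Cacna1e, the pore of R-type channels, was at 3.51, 4.28 and 3.10 against 0.867, 0.397 and 1.41 CPM (1.97 ± 0.37, adjusted p = 0.022), and Cacna2d3, an alpha2delta subunit, at 6.29, 6.13 and 3.21 against 1.36, 0.953 and 1.52 CPM (2.00 ± 0.33, adjusted p = 0.013). Both were low in absolute terms, and neither pair of groups overlapped. Kcnk10, the mechanosensitive leak channel TREK2, was at 2.12, 1.85 and 1.86 against 0.557, 0.556 and 0.959 CPM (1.45 ± 0.29, adjusted p = 0.025), and under DESeq2 its adjusted p was 0.054. Kcng3, a silent Kv subunit, was lower in Foxa2+ CM, at 1.46, 1.39 and 1.80 against 3.53, 3.73 and 5.81 CPM (-1.49 ± 0.27, adjusted p = 0.019). Each of these 5 calls was lost without replicate 1 or 2 of Foxa2+ CM and without replicate 2 of Foxa2- CM. Those of Cacna1e, Cacna2d3 and Kcnk10 were also lost without replicate 1 of Foxa2- CM, and that of Kcnmb1 without that sample or replicate 3 of Foxa2+ CM. The adjusted p ranged over the samples left out from 0.00035 to 0.13 for Kcnmb1, 0.0022 to 0.11 for Cacna1e, 0.0037 to 0.072 for Cacna2d3, 0.0063 to 0.11 for Kcnk10 and 0.012 to 0.1 for Kcng3.

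Smaller differences involved some of the most abundant channel genes. Cacna1g, the Cav3.1 pore of T-type calcium channels, was at 111, 124 and 114 CPM in Foxa2+ CM against 90.7, 73.1 and 77.7 CPM in Foxa2- CM (0.54 ± 0.08, adjusted p = 0.012), and Kcnip3 at 101, 96.5 and 98.8 and 75.2, 67.1 and 76.3 CPM (0.44 ± 0.07, adjusted p = 0.011). Cacna1d, an L-type pore with a part in pacemaking, was lower in Foxa2+ CM (3.07, 3.41 and 3.61 against 6.01, 5.32 and 5.93 CPM). Cacna1c, the L-type pore of cardiac and smooth muscle, was at 50.5, 55.9 and 42.2 and 47.8, 40.6 and 36.6 CPM and did not pass the test (log2 fold change 0.25 ± 0.13, adjusted p = 0.34). The call for Cacna1g was lost without replicate 2 of either CM group, that for Kcnip3 without replicate 2 of Foxa2+ CM, and that for Cacna1d without any 1 CM sample but replicate 3 of Foxa2- CM. How many of the 15 genes passed depended on the samples. Without replicate 1 of Foxa2+ CM 4 of them passed, without replicate 2 of Foxa2+ CM 2 (Scn4a and Kcne1l), without replicate 1 of Foxa2- CM 6, and without replicate 2 of Foxa2- CM 3. Without replicate 3 of Foxa2+ CM, the library low in Foxa2, 10 of the 15 passed, and without replicate 3 of Foxa2- CM 14 did. When the difference was tested in the model of all 10 samples, where the other groups add to the estimate of spread, 2 of the 15 passed, Scn4a and Cacna1g.

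**Figure D2:**
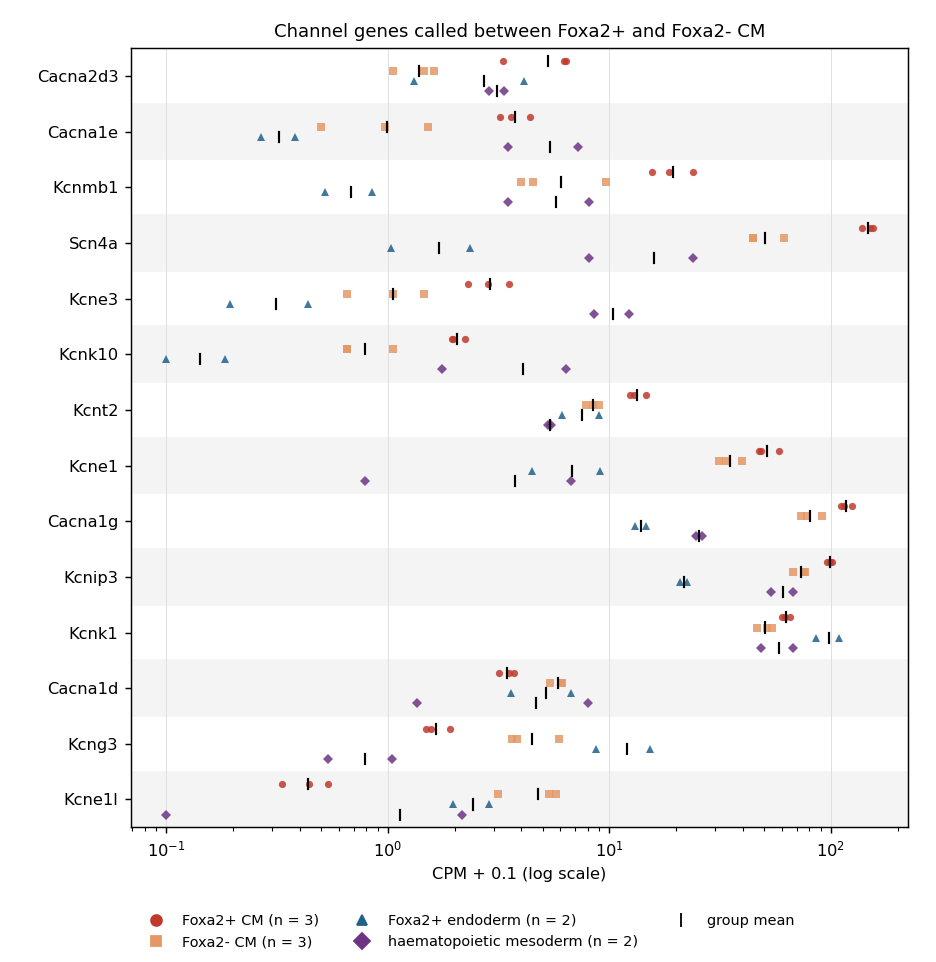
Level (CPM + 0.1, log scale) of 14 of the 15 channel genes called between Foxa2+ and Foxa2- CM, in each of the 10 samples, with group means as black bars, ordered from the highest to the lowest log2 fold change. Kcne1l, Kcng3 and Cacna1d lie lower in Foxa2+ CM, and the other 11 genes higher.

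The promoters of 4 of these genes are shown because they span the range of base composition found among genes that differed by at least 2-fold between the CM groups and have a single entry in the RefSeq promoter table (GRCm38.p6, the mm10 assembly). Each line gives the 250 bases before the annotated start, 5′ to 3′ on the gene's strand, with CG dinucleotides in capitals. Scn4a lies at chr11:106349391-106349640 on the minus strand, Kcnmb1 at chr11:33962763-33963012 on the plus strand, Kcne1l at chrX:142306199-142306448 on the minus strand and Kcng3 at chr17:83631896-83632145 on the minus strand. The RefSeq starts of Scn4a and Kcne1l lie inside the GENCODE genes given above.
Scn4a: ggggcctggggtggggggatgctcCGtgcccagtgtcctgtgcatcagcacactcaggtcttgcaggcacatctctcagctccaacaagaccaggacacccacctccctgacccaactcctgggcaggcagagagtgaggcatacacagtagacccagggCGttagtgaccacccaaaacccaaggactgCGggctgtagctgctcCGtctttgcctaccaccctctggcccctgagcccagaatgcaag
Kcnmb1: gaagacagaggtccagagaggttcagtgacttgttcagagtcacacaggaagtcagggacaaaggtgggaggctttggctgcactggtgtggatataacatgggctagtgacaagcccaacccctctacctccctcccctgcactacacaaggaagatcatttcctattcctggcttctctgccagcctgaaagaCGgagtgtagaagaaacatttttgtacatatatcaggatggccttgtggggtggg
Kcne1l: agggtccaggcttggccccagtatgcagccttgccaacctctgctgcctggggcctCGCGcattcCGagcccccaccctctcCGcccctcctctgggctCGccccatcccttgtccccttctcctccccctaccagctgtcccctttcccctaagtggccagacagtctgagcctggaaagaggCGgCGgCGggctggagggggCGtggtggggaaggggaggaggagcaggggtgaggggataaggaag
Kcng3: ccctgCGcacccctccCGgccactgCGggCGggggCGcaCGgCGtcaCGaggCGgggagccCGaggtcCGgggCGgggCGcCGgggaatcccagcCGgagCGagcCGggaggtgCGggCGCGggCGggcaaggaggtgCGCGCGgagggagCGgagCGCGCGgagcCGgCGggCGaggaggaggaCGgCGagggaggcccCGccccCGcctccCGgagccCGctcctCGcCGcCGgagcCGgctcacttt

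These stretches held 4 CG dinucleotides for Scn4a, 1 for Kcnmb1, 9 for Kcne1l and 41 for Kcng3. Over the 101 channel genes with an entry the median was 9 CG dinucleotides and 60% G and C, against 6 and 52.4% over all 27025 genes of the table. The letters TGTTTAC, a core of forkhead binding sites, were searched on both strands of the 250 bases before the start. Of the 101 genes 0 held them there, against 3.54% of all genes. A binding site of the GATA family of factors was searched as the letters AGATAA and found in 4 of the 101 genes (3.96%) and in 11.4% of all genes. In Kcnip3, which has 3 annotated starts, they stand 80 bases before 1 of them (the site in capitals with 18 bases on each side, chr2:127521449-127521490, minus strand).
Kcnip3: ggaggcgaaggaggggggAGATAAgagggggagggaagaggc

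Endoderm differed from each kind of cardiac mesoderm in 50 or more of the 100 tested channel genes. Across the 4 groups 75 of the 100 tested genes differed (adjusted p below 0.05, background 44.2%). Of these 75 the highest mean lay in endoderm for 35, in Foxa2+ CM for 16, in haematopoietic mesoderm for 16 and in Foxa2- CM for 8. The lowest mean lay in endoderm for 21, in Foxa2+ CM for 17, in haematopoietic mesoderm for 27 and in Foxa2- CM for 10. The same split was not counted over all genes, so these counts have no background. Against Foxa2+ CM, 58 of 100 genes passed (background 35.0%), 38 higher in endoderm (background 18.3%) and 20 lower (background 16.7%). Against Foxa2- CM, 50 passed (background 30.1%), 31 higher (background 16.1%) and 19 lower (background 14.0%). Both comparisons use the same 2 endoderm samples. The median log2 fold change of the 100 genes was 0.58 against Foxa2+ CM and 0.49 against Foxa2- CM, where all tested genes had medians of 0.0072 and 0.0050.

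**Figure D3:**
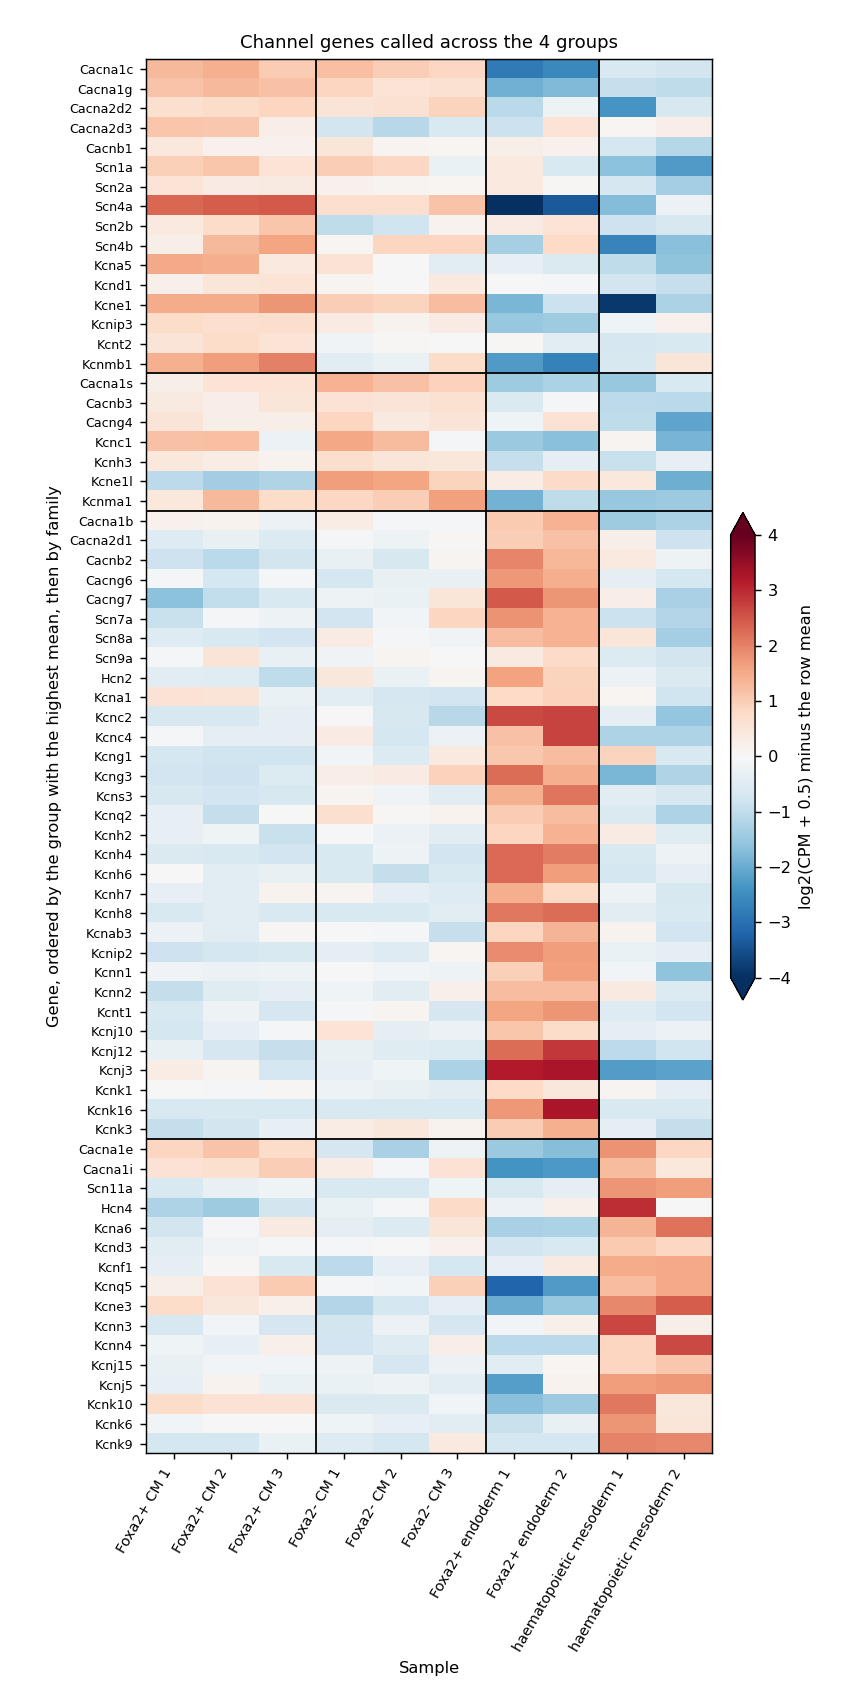
Heat map of 71 of the 75 channel genes that differed across the 4 groups, one row a gene and one column a sample, coloured by log2(CPM + 0.5) minus the row mean, with rows ordered by the group with the highest mean. The third block, 32 genes highest in endoderm, is red in the 2 endoderm columns, and the 2 haematopoietic mesoderm columns differ from each other for genes such as Hcn4 and Kcnn3.

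Of the 6 tested L-type and T-type calcium channel pores, 4 were lower in endoderm than in either CM group (Cacna1c, Cacna1s, Cacna1g and Cacna1i), and Cacna1d and Cacna1h passed neither comparison. Cacna1c was at 2.42 and 3.01 CPM in endoderm, 18.1-fold below Foxa2+ CM (-4.18 ± 0.21, adjusted p = 2.3e-06) and 15.2-fold below Foxa2- CM. T-type pores followed, with Cacna1g at 12.95 and 14.6 CPM in endoderm (-3.08 ± 0.12, adjusted p = 8.2e-07 against Foxa2+ CM) and Cacna1i, the Cav3.3 pore, at 0.280 and 0.335 CPM against 5.63, 5.84 and 7.56 CPM (-4.33 ± 0.46, adjusted p = 0.00014). The third T-type gene, Cacna1h, did not pass, at 20.8 and 42.5 CPM in endoderm and 18.9, 16.3 and 17.5 CPM in Foxa2+ CM. Cacna1s, the skeletal muscle L-type pore, was low in cardiac mesoderm (1.39, 1.85 and 1.86 and 3.72, 3.10 and 2.54 CPM) and had 3 counts in all in endoderm. In the other direction, Cacna1b, the N-type pore of nerve terminals, was at 42.2 and 54.5 CPM in endoderm against 23.03, 22.4 and 17.1 CPM in Foxa2+ CM (1.21 ± 0.18, adjusted p = 0.0009).

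Accessory calcium channel genes changed in both directions. Cacnb2, the beta subunit that predominates in adult heart, was higher in endoderm, at 12.7 and 8.03 CPM against 1.39, 1.10 and 1.52 CPM (2.94 ± 0.35, adjusted p = 0.00023), and so was Cacng7, a gamma subunit that also serves glutamate receptors (60.2 and 36.6 against 2.997, 5.03 and 6.77 CPM, 3.28 ± 0.49, adjusted p = 0.00082). Cacnb3 was lower, at 56.4 and 79.2 CPM against 108, 101 and 117 CPM (-0.68 ± 0.13, adjusted p = 0.0032). Cacna2d1 was higher (29.7 and 33.96 against 10.1, 11.9 and 9.98 CPM) while Cacna2d2 was lower (51.99 and 94.4 against 170.3, 184 and 199.6 CPM, -1.33 ± 0.41, adjusted p = 0.031). The call for Cacna2d2 was lost without endoderm replicate 1, at a log2 fold change of -0.99 (adjusted p = 0.21), and without replicate 1, 2 or 3 of Foxa2+ CM.

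The sodium channel pores Scn4a and Scn8a differed in opposite directions between endoderm and Foxa2+ CM. Scn4a was at 0.932 and 2.26 CPM in endoderm, a log2 fold change of -6.50 ± 0.53 (SE, adjusted p = 3.1e-05) against Foxa2+ CM and -4.94 ± 0.53 (SE, adjusted p = 0.00015) against Foxa2- CM. Both endoderm samples lay below every other sample. Scn8a, a pore of neurons, was higher, at 31.6 and 35.1 CPM against 8.99, 8.33 and 7.45 CPM in Foxa2+ CM (2.02 ± 0.42, adjusted p = 0.0051).

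Voltage-gated potassium channel genes differed between endoderm and Foxa2+ CM in both directions. Higher in endoderm were 4 of 12 tested Kv1 to Kv4 pores, 3 of 5 silent subunits and 2 of 4 Kv7 pores. Lower were 2, 0 and 1 of them. Of all 100 tested channel genes 38 were higher (background 18.3%) and 20 lower (background 16.7%). Among silent subunits, Kcns3 was higher, at 38.9 and 65.2 against 8.99, 8.28 and 9.08 CPM in Foxa2+ CM (2.57 ± 0.23, adjusted p = 4.9e-05), and so was Kcng3 at 15.1 and 8.62 against 1.46, 1.39 and 1.80 CPM (2.92 ± 0.36, adjusted p = 0.00031). Among the fast Kv3 pores, Kcnc2 was at 13.04 and 13.4 against 0.877, 0.868 and 1.13 CPM (3.77 ± 0.51, adjusted p = 0.00047) and Kcnc4 at 5.40 and 16.7 against 2.05, 1.505 and 1.58 CPM, while Kcnc1 was lower, at 3.82 and 3.35 against 26.97, 27.7 and 9.81 CPM (-2.58 ± 0.75, adjusted p = 0.025), a call lost without replicate 1 or 2 of Foxa2+ CM or either endoderm sample. Of the 6 tested genes of the EAG, ERG and ELK family, which includes the ERG1 channel of cardiac repolarisation, 5 were higher in endoderm than in Foxa2+ CM and 1 lower, and the same counts held against Foxa2- CM. Only 3 of these 6 passed the low-count filter between the CM groups. The calls for Kcnh4, Kcnh6 and Kcnh8, low in both CM groups, were lost under the stricter filter of a mean of 20 counts. Kcnh2, the ERG1 gene, was at 19.6 and 28.2 CPM against 8.26, 9.26 and 5.47 CPM (1.64 ± 0.30, adjusted p = 0.0028). Kcnh8, named here after its values were seen, was at 2.80 and 3.10 CPM in endoderm and had 1 count in each of the other 3 groups. Kcnq5, an M-current pore, was lower, at 0.745 and 1.84 CPM in endoderm and 12.6, 16.3 and 22.6 CPM in Foxa2+ CM (-3.71 ± 0.51, adjusted p = 0.00054).

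Other potassium channel genes separated endoderm further. Kcnj3 encodes GIRK1, a subunit of the channel through which acetylcholine slows the heart, and stood at 65.3 and 70.6 CPM in endoderm against 8.63, 7.47 and 4.005 CPM in Foxa2+ CM against 5.33, 6.11 and 2.54 CPM in Foxa2- CM (3.35 ± 0.36, adjusted p = 0.00014 and 3.88 ± 0.37, adjusted p = 8.2e-05). Of its exons 31.1% are shared with a gene on the other strand. Kcnj12, the inward rectifier Kir2.2, was at 4.94 and 7.78 CPM against 0.439, 0.231 and 0.113 CPM in Foxa2+ CM (4.62 ± 0.44, adjusted p = 6.8e-05). Kcnk16, a leak channel known from pancreas and named after its values were seen, had 2.05 and 6.86 CPM in endoderm and no count in the 8 other samples, at least 23.8-fold higher than Foxa2+ CM against a floor of 3 counts a library. DESeq2 did not call it. Among genes lower in endoderm were subunits of Kv4, BK and KCNQ channels. Kcnip3 was at 20.8 and 22.4 CPM (-2.19 ± 0.12, adjusted p = 3.5e-06 against Foxa2+ CM), Kcnmb1 at 0.745 and 0.418 CPM (-5.05 ± 0.63, adjusted p = 0.00032), Kcne3 at 0.0932 and 0.335 CPM (-3.61 ± 0.58, adjusted p = 0.0012) and Kcne1 at 4.38 and 8.95 CPM (-2.93 ± 0.61, adjusted p = 0.0052). Without endoderm replicate 1 the difference in Kcne1 was -2.54 (adjusted p = 0.052). Kcne1l was higher in endoderm than in Foxa2+ CM (2.78 ± 0.91, adjusted p = 0.041), a call lost without any 1 of those 5 samples (adjusted p of 0.076 to 0.16).

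The endoderm samples also held more of 8 neural and neuronal markers, at 42.2 to 48.8 summed CPM against 9.90 to 10.9 in Foxa2+ CM, 12.6 to 15.7 in Foxa2- CM and 11.03 to 32.4 in haematopoietic mesoderm. Of the 5 tested, 3 were higher than in Foxa2+ CM. Dcx was at 13.1 and 9.20 CPM in endoderm and Elavl3 at 4.38 and 5.44 CPM, whereas Pax6 was at 0.186 and 1.34 and Neurog1 at 0.745 and 0 CPM. The part of such cells, and of cells with the pluripotency markers given above, in the endoderm differences was not tested.

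**Figure D4:**
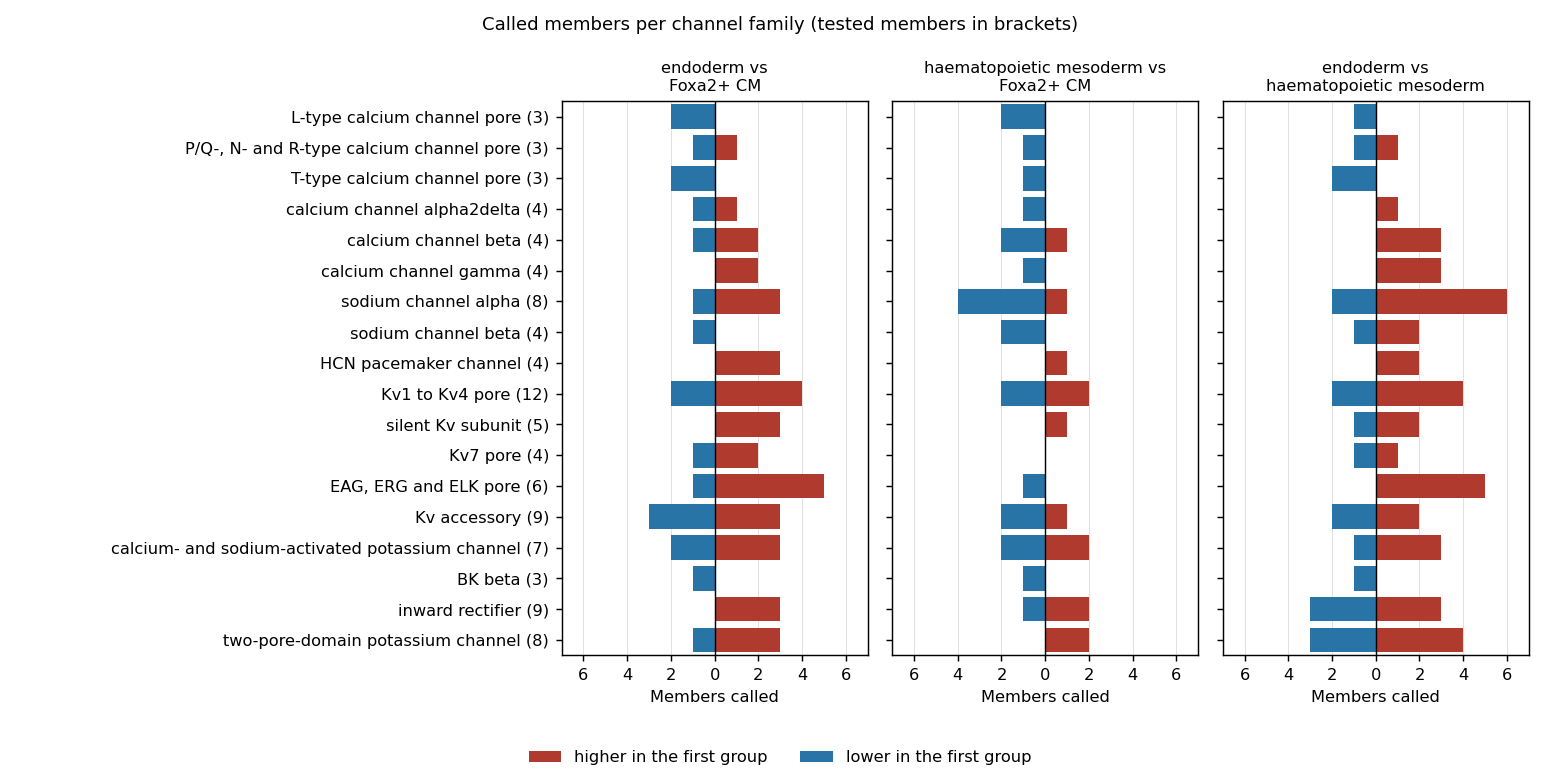
Number of channel genes per family called higher (red, to the right) or lower (blue, to the left) in the first group of each panel, at an adjusted p below 0.05, with the number of tested genes of the family in brackets. EAG, ERG and ELK pores were higher in endoderm for 5 of 6 tested genes against both Foxa2+ CM and haematopoietic mesoderm. Only 3 of these 6 passed the low-count filter between the CM groups.

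Haematopoietic mesoderm, which came from the same cultures as cardiac mesoderm, differed from it in fewer channel genes and mostly by lower levels. Against Foxa2+ CM 36 of 100 genes passed (background 22.8%), 13 higher (background 11.6%) and 23 lower (background 11.2%), and against Foxa2- CM 36 passed (background 21.6%), 13 higher (background 11.3%) and 23 lower (background 10.3%). The 2 comparisons share the haematopoietic mesoderm samples. The median log2 fold changes of the 100 genes were 0.013 and -0.25, beside 0.028 and 0.018 for all genes. The summed level of the 138 genes was 827 ± 100.4 CPM (SD, n = 2), against 1367 ± 46.1 CPM in Foxa2+ CM (n = 3), 1166 ± 59.7 CPM in Foxa2- CM (n = 3) and 1160 ± 87.6 CPM in endoderm (n = 2).

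The 23 genes lower in haematopoietic mesoderm than in Foxa2+ CM included calcium, sodium and potassium channel genes. Cacna1c was at 13.2 and 12.2 CPM (-1.96 ± 0.17, adjusted p = 0.00015 against Foxa2+ CM), Cacna1g at 26.04 and 24.5 CPM (-2.20 ± 0.11, adjusted p = 2.9e-05) and Cacnb3 at 40.7 and 39.5 CPM (-1.44 ± 0.13, adjusted p = 0.00021). The levels of Cacna1c and Cacna1g in haematopoietic mesoderm lay between those of endoderm and of either CM group with no overlap. Scn4a was at 7.97 and 23.7 CPM (-3.24 ± 0.40, adjusted p = 0.00079 against Foxa2+ CM). Other sodium channel genes were low as well, Scn1a, a pore of neurons, at 1.88 and 1.02 CPM against 13.7, 15.3 and 10.3 CPM in Foxa2+ CM (-3.15 ± 0.52, adjusted p = 0.003) and Scn4b, the beta4 subunit, at 0.0627 and 0.630 against 3.73, 8.28 and 10.3 CPM (-4.50 ± 0.97, adjusted p = 0.01). Without haematopoietic mesoderm replicate 1 the difference in Scn4b was -3.55 (adjusted p = 0.05). Kcne1 was at 0.690 and 6.62 CPM and Kcna5, the Kv1.5 pore of the atrium, at 0.502 and 0.158 CPM against 5.26, 4.98 and 2.14 CPM in Foxa2+ CM (-3.55 ± 0.64, adjusted p = 0.0046). Kcnma1 was at 0.502 and 0.551 CPM (-3.16 ± 0.52, adjusted p = 0.003).

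The channel genes higher in haematopoietic mesoderm than in Foxa2+ CM, 13 of 100, were near the background share of 11.6%. Most of them were potassium channel genes. Kcnj5 encodes GIRK4, the partner of GIRK1 in the heart, and was at 13.2, 18.7 and 13.8 CPM in Foxa2+ CM, 13.9, 14.4 and 12.4 in Foxa2- CM, 3.26 and 18.6 in endoderm and 53.9 and 56.5 in haematopoietic mesoderm (1.86 ± 0.47, adjusted p = 0.021 against Foxa2+ CM). Kcnj3 was at 1.07 and 1.18 CPM in the same samples, below both CM groups (-2.56 ± 0.46, adjusted p = 0.0045 against Foxa2+ CM), so that the 2 partners had their highest levels in different groups. Kcne3, a subunit that holds KCNQ1 channels open in epithelia, was at 8.41 and 12.2 CPM (1.89 ± 0.36, adjusted p = 0.0056 against Foxa2+ CM and 3.41 ± 0.39, adjusted p = 0.0006 against Foxa2- CM). Kcnd3, the Kv4.3 pore, was at 9.73 and 8.27 CPM (1.23 ± 0.21, adjusted p = 0.0034), Kcnf1, a silent subunit, at 4.52 and 4.73 CPM (2.22 ± 0.40, adjusted p = 0.0045), and Kcna6, a Kv1 pore with 39.6% of its exons shared with another gene, at 10.9 and 19.5 CPM (2.02 ± 0.43, adjusted p = 0.0092). Kcnk6, a leak channel related to Kcnk1, was at 53.9 and 21.8 CPM (1.32 ± 0.32, adjusted p = 0.017). Kcnn4, the calcium-activated channel of blood cells, named after its values were seen, was at 1.44 and 6.06 CPM against 0.439, 0.347 and 0.733 CPM in Foxa2+ CM. Its call against Foxa2+ CM was lost without replicate 1 or 2 of that group, and also without replicate 2 of haematopoietic mesoderm, the higher of the 2 samples. The log2 fold change ran from 1.48 to 3.55 over the samples left out. Kcnn4 had no count in endoderm, at least 14.2-fold lower than the mean of haematopoietic mesoderm against a floor of 3 counts a library.

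The 2 haematopoietic mesoderm samples disagreed for several genes. Hcn4, the main pacemaker channel of the heart, was at 22.02 and 2.44 CPM, while Foxa2+ CM held 0.731, 0.579 and 1.24, Foxa2- CM 1.92, 2.22 and 4.40 and endoderm 1.96 and 2.84 CPM. Its difference from Foxa2+ CM was 3.83 ± 0.79 (SE, adjusted p = 0.0082) and became 1.501 (adjusted p = 0.095) without replicate 1. The difference in Kcnk6 was 0.52 (adjusted p = 0.14) without replicate 1 and was also above the threshold without replicate 1 or 2 of Foxa2+ CM. For Kcnj5, whose 2 samples lay close together, the adjusted p was 0.044 to 0.073 over the samples left out, above the threshold without replicate 1 or 3 of Foxa2+ CM or replicate 2 of haematopoietic mesoderm. The call for Kcna6 was lost without replicate 2 of haematopoietic mesoderm, at 1.53 (adjusted p = 0.051). Replicate 1 also held more of the 8 neural and neuronal markers (32.4 against 11.03 summed CPM), Tubb3 foremost (22.9 and 4.17 CPM). Their part in these differences was not tested.

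Endoderm and haematopoietic mesoderm had the most called channel genes of the pairs compared in the model of all 10 samples. There 63 of 100 genes passed the threshold (background 32.6%), 42 higher in endoderm (background 16.4%) and 21 lower (background 16.2%). Kcnj3 was 60.2-fold higher in endoderm (5.91 ± 0.50, adjusted p = 4.9e-05). Cacna1b was 6.31-fold higher in endoderm, and haematopoietic mesoderm, at 7.22 and 8.11 CPM, lay below the CM groups as well (2.66 ± 0.22, adjusted p = 4.2e-05). On the other side Kcnq5 (25.9 and 31.1 CPM in haematopoietic mesoderm), Cacna1i (9.41 and 4.96 CPM) and Cacna1e (7.15 and 3.39 CPM) were lower in endoderm, at -4.43 ± 0.53 (SE, adjusted p = 0.00029), -4.51 ± 0.48 (SE, adjusted p = 0.00014) and -4.53 ± 0.67 (SE, adjusted p = 0.00091). Of the 8 tested sodium channel alpha genes, 6 were higher in endoderm and 2 lower. Among the 6, Scn1a, Scn2a, Scn8a and Scn9a were not called when endoderm and haematopoietic mesoderm were fitted alone. Scn9a had 1 count in all in haematopoietic mesoderm and 17 in endoderm. With only these 2 groups in the fit, 38 genes passed, whereas endoderm against Foxa2+ CM kept 57 of its 58 calls when fitted alone. The ranking of the pairs thus depended on the fit.

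A list of 30 channel genes with known roles in cardiac excitability was followed as a whole. In Foxa2+ CM against Foxa2- CM, 2 of its 21 tested genes were higher (Cacna1g and Kcne1; background 3.81%) and 2 lower (Cacna1d among them; background 2.66%), with a median log2 fold change of -0.23 beside -0.0014 for all tested genes. In endoderm against Foxa2+ CM, 12 of 25 were higher (background 18.3%) and 6 lower (background 16.7%), with a median of 1.48 beside 0.0072, and in haematopoietic mesoderm against Foxa2+ CM, 4 were higher (background 11.6%) and 7 lower (background 11.2%), with a median of 0.29 beside 0.028. Only 6 of the 30 reached 10 CPM in every CM sample, namely Cacna1c, Cacna1g, Cacna1h, Cacna2d2, Kcne1 and Kcnj5. Another 6 were under 1 CPM in every sample, among them Kcnq1 (slow repolarising current), Kcnj8 and Kcnj11 (ATP-sensitive current) and Kcna4 and Kcnd2 (transient outward current). The genes with their highest mean in endoderm included Kcnj3, Kcnh2, Cacnb2, Kcnj12 and Hcn2 (10.8 and 6.44 CPM against 2.19, 2.14 and 1.35 in Foxa2+ CM, 2.18 ± 0.34, adjusted p = 0.0011). Kcnip2, the cardiac Kv4 partner, was at 4.19 and 3.51 CPM in endoderm against 0.219, 0.289 and 0.338 CPM in Foxa2+ CM (3.71 ± 0.36, adjusted p = 7.3e-05), and Kcnk3, the leak channel TASK1, at 1.77 and 2.51 against 0.0731, 0.174 and 0.395 CPM (3.22 ± 0.54, adjusted p = 0.0017). Kcnn2, a small-conductance calcium-activated channel, was at 5.78 and 5.77 against 0.877, 1.39 and 1.52 CPM (2.17 ± 0.38, adjusted p = 0.002). Kcnj2, the inward rectifier that sets the resting potential of ventricular muscle, was at most 1.02 CPM in any sample and passed no comparison.

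**Figure D5:**
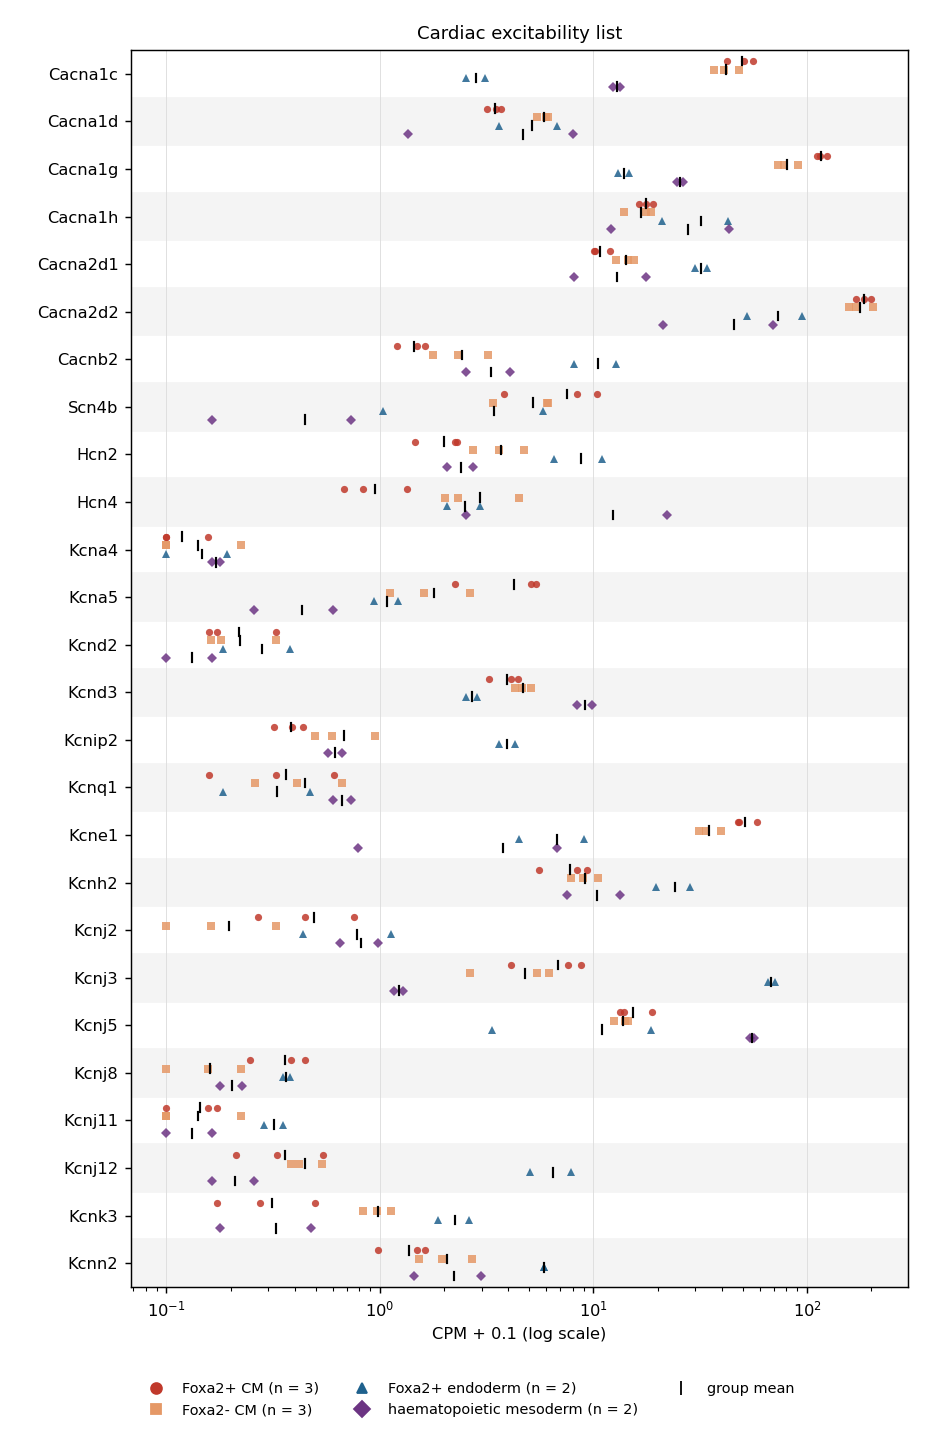
Level (CPM + 0.1, log scale) of 26 of the 30 genes of the cardiac excitability list in each of the 10 samples, with group means as black bars. Cacna1c, Cacna1g and Cacna2d2 lie highest in the CM samples, Kcnj3 and Kcnh2 in endoderm and Kcnj5 and Kcnd3 in haematopoietic mesoderm, and 5 of the genes shown stay under 1 CPM throughout.

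Genes whose products bind or regulate channels were followed through a second list of 39 genes, 38 of them in the files. Between the CM groups 4 of 29 tested partners passed (background 6.48%), 3 higher in Foxa2+ CM (background 3.81%) and 1 lower (background 2.66%). Gem, a GTP-binding protein that inhibits calcium channels, was at 41.96, 42.4 and 42.98 CPM in Foxa2+ CM against 27.3, 28.5 and 29.3 CPM in Foxa2- CM (0.58 ± 0.07, adjusted p = 0.0057), and its relative Rem2 was lower, at 4.17, 4.28 and 3.44 against 9.23, 8.18 and 6.21 CPM (-0.98 ± 0.20, adjusted p = 0.027). In endoderm against Foxa2+ CM 12 of 34 were higher (background 18.3%) and 7 lower (background 16.7%), with a median log2 fold change of 0.50 beside 0.0072 for all tested genes. Gem was lower in endoderm (6.34 and 9.54 CPM, -2.41 ± 0.21, adjusted p = 4.6e-05) and Rem2 higher (23.7 and 26.4 CPM, 2.66 ± 0.44, adjusted p = 0.0016). Ank3, the ankyrin that anchors sodium channels, was at 118 and 126 CPM in endoderm against 30.7, 44.04 and 39.1 CPM (1.68 ± 0.18, adjusted p = 0.00015), and Ahnak, a scaffold that binds the calcium channel beta subunit, at 10.99 and 11.5 against 138, 210.1 and 281 CPM (-4.22 ± 0.49, adjusted p = 0.00022). The RGK proteins Gem and Rem2 differed in opposite directions in both comparisons. Unc79 and Unc80, partners in the sodium leak channel complex, parted, with Unc79 at 8.85 and 7.36 against 1.83, 0.868 and 0.620 CPM (2.90 ± 0.45, adjusted p = 0.0011) and Unc80 at 25.7 and 13.7 against 63.2, 70.4 and 57.3 CPM (-1.69 ± 0.50, adjusted p = 0.026). Amigo1, a partner of Kv channels, was higher in endoderm, at 20.5 and 25.8 against 6.94, 7.58 and 7.84 CPM (1.63 ± 0.32, adjusted p = 0.004). In haematopoietic mesoderm against Foxa2+ CM 2 of 34 partners were higher (background 11.6%) and 8 lower (background 11.2%), among the former Lrrc55, a BK channel gamma subunit, at 5.02 and 6.22 against 0.366, 1.04 and 1.80 CPM (2.35 ± 0.61, adjusted p = 0.022).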

How the data were processed

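RNAseq was analysed for 10 samples in 4 groups, taken from the labels. Single-end reads of 50 nt were mapped by the authors with STAR 2.5.0a (mm10). Picard served to drop duplicates, and HTSeq 0.6.0 to assign reads to Ensembl genes. The deposited values are raw read counts. Duplicate removal without molecular identifiers may compress differences of highly expressed genes. Whether counting used strand is not given in the sources used here. Reads in no gene or in an ambiguous place made up 19.5 to 27.8% of the sum of such reads and those counted on genes. They were left out, as were the other summary rows.

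Genes were matched to GENCODE M21 by identifier without version. Counts were tested with edgeR 4.0.16 (R 4.3.3; TMM normalization, filterByExpr, quasi-likelihood F test, Benjamini-Hochberg adjustment over all genes tested). The CM groups were compared on their 6 samples (15284 genes). Other pairs, and all 4 groups, were compared in 1 model of 10 samples (16180 genes). A gene is called at an adjusted p below 0.05. CPM values use TMM-scaled library sizes, and CPM per kb divides by union exon length. Standard errors are the log2 fold change over the square root of F. Scripts were tested on simulated counts. No 2 samples of a group agreed within sampling noise (chi-square per degree of freedom of 3.72 to 21.5).

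Named genes were those called at 2-fold or more with a mean of at least 20 counts (up to 10 in each direction and comparison), the leading gene of each family by length-scaled level, and the cardiac excitability list, with channel partners under the first rule. Other genes are named where a count is spelled out. Genes and lists were chosen with earlier results of these data known. Alternatives were DESeq2 1.42.0, RLE size factors, no filter, a mean of 20 counts, a 2-fold limit, the replicate number as a block, other sets of samples in the fit, and each sample left out. Promoter windows are from RefSeq (GRCm38.p6). Floors cover counting error only, whereas standard errors and SDs include the spread between samples. Some of the genes named by these rules enter the fits and counts and are not reported here one by one.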

Additional observations from a re-analysis of the deposited data

How the results depend on the processing

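Between the CM groups the count of 15 called genes became 8 when at least a 2-fold difference was also asked, 2 in the model of all 10 samples, 32 with the replicate number as a block and 2 to 19 with 1 sample left out. Between endoderm and haematopoietic mesoderm it went from 63 to 38 when only those 2 groups were fitted, and to 51 to 69 with 1 sample left out. The cause was not tested. The other counts stayed within 1.5 times of their value under DESeq2, RLE size factors, no filter, a stricter filter and the other fits, and with 1 sample left out ranged from 44 to 54 (endoderm against Foxa2+ CM), 35 to 49 (endoderm against Foxa2- CM), 29 to 42 (haematopoietic mesoderm against Foxa2+ CM), 28 to 40 (against Foxa2- CM) and 67 to 82 (all 4 groups). Whether the replicate numbers shared by the 2 CM groups pair the samples was not settled. Deviations from the group means correlated at 0.447, 0.0749 and 0.539 for numbers 1, 2 and 3, and 5 of 6 samples correlated best with their own number, a hint from the data and not from the design. The study's methods name no covariate, and the numbers were not used as a block in the reported fits. The 3 correlations cannot decide the question, because deviations from a group mean sum to 0 and the values are not independent. Of 103 log2 fold changes of named genes, all 1120 alternative values kept their direction, 82 lost the call (69 of them with a sample left out) and 76 changes were called under every alternative. Between the CM groups 1 of 8 was, and 32 of the 82 losses lay there. Where a group had 2 samples, leaving 1 out assumes that the lone sample varies like the other groups. Genes near the floor of 3 counts, such as Kcne1l in Foxa2+ CM, have folds that depth limits.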

Other observations

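In 4 cases a non-coding row of the files is named after a channel gene as its opposite strand transcript. Kcnmb4os2 was at 3.51, 4.17 and 3.89 CPM in Foxa2+ CM, 3.10, 3.10 and 3.61 in Foxa2- CM, 2.24 and 3.26 in endoderm and 0.878 and 3.15 in haematopoietic mesoderm. Its partner Kcnmb4, a BK channel beta subunit, was at 12.9, 14.7 and 15.8 CPM in Foxa2+ CM, 14.4, 14.3 and 14.6 in Foxa2- CM, 9.50 and 13.3 in endoderm and 5.46 and 13.4 in haematopoietic mesoderm, also lowest in replicate 1 of haematopoietic mesoderm. The other 3 (Kcnmb4os1, Kcnd3os and Kcnab3os) stayed under 1 CPM in every sample. The library kit does not mark strand, so that reads of a pair of overlapping genes cannot be told apart.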
